A study of Mus musculus with 12 samples.

Results

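The KLF transcription factors measured here were 8 genes, Klf2, Klf3, Klf4, Klf6, Klf7, Klf9, Klf10 and Klf13. They were chosen by name. All 30 probe sets that the platform's probe table gives to 1 of these symbols were taken, out of 45037 probe sets that are not controls. Of these, the 34945 with 1 symbol represent 18193 gene symbols. RNA came from CTLL-2, a cytotoxic T cell line derived from a C57BL/6 mouse that depends on the cytokine interleukin 2 (IL-2) to grow, and was measured on 12 Affymetrix Mouse Genome 430 2.0 arrays. Cells kept in medium with 50 U/mL human recombinant IL-2 were washed and left without it for 14 h, and cycloheximide, a drug that stops translation, was then added at 20 µg/mL. All groups thus shared the starvation and the drug. The first group was collected after 30 min of cycloheximide, the second after 4.5 h of cycloheximide, and the third was given cycloheximide for 30 min and then 100 U/mL human recombinant IL-2 for 4 h, with 4 arrays labelled for each. CTLL-2 is a single cell line, and the labels do not say whether the replicates of a group were separate cultures. The labels do not say in words that the drug stayed for the 4 h with IL-2, and this is assumed here. Cells that never received cycloheximide were not analysed here, so on that assumption the values describe time and IL-2 in the presence of the drug and not the drug itself.

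The library labelled IL-2 replicate 3 did not hold T cell RNA and was left out of the values below. The summed signal of 9 T cell marker genes was 287 on it, against 133629 to 232934 on the other 11 arrays, while the summed signal of 8 muscle genes was 143655 on it and 2627 to 5065 elsewhere. Of these muscle genes Ckm and Des were exceptions. Ckm, which made up most of the sum elsewhere, read 1690 on it and 2097 to 4563 on the other 11 arrays. Des read 92.4 on it, within their range of 3.1 to 102.4. On the 11 arrays 7 of the 9 T cell markers exceeded a signal of 100 throughout, and the other two, Cd2 and Cd5, stayed at or below 14.7 and 44.7. The summed B cell markers reached at most 231, the fibroblast markers 398 and the myeloid markers 1884. Array medians ran from 57.7 to 78.3 signal units. The 4 arrays of the 4.5 h group were scanned on a separate day that held no other group, so scan day and group cannot be told apart in either comparison that uses them. The array of 30 min replicate 3 was also scanned apart from the rest of its group, on a day shared only with the left-out library. The log2 ratio of 3' to 5' probe sets of the actin gene Actb, a measure of RNA length, was 0.56 ± 0.17 (SD, n = 4) in the 4.5 h group, 0.29 ± 0.04 (SD, n = 4) at 30 min and 0.25 ± 0.03 (SD, n = 3) with IL-2. For Gapdh the ratio was -0.08 ± 0.08 (SD, n = 4), -0.21 ± 0.09 (SD, n = 4) and -0.22 ± 0.05 (SD, n = 3) in the same order, a smaller gap. The part of RNA length in the results below was not tested.

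Krüppel-like factors bind GC-rich and CACCC sequences through zinc fingers at their C-terminal end and differ in the part of the protein that recruits coactivators or corepressors. Klf2, Klf4, Klf6 and Klf7 mostly activate transcription. Klf3 represses through the C-terminal binding proteins, and Klf9, Klf10 and Klf13 bind the corepressor Sin3a. In T cells the family is best known through Klf2, which keeps resting cells quiescent and circulating, and several members are short-lived early-response genes in other cell types.

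Promoter windows from 250 bases before to 50 bases after the gene start were found for 7 of the 8 members in RefSeq (GRCm38.p6). The Klf7 window, chr1:64121340-64121639 on the minus strand, lay wholly inside the listed gene, chr1:64029448-64122345. It thus does not cover the outer start of Klf7. Klf10 is named only. The windows were searched on both strands for TTCNNNGAA, the core that STAT proteins bind downstream of the IL-2 receptor, GTAAACA (FOXO), the MEF2 motif, TGANTCA (AP-1), TGACGTCA (CRE), GGGCGG (GC box) and CACCC, the core that KLF proteins bind. The windows of Klf9, Klf2 and Klf6 are printed 5′ to 3′ in lower case with matches to these motifs except CACCC in capitals. Klf9 is shown because it was the member called higher with IL-2 at matched time, Klf2 because several of its known upstream regulators were called lower, and Klf6 because it was called higher with IL-2 against 30 min.
Klf9: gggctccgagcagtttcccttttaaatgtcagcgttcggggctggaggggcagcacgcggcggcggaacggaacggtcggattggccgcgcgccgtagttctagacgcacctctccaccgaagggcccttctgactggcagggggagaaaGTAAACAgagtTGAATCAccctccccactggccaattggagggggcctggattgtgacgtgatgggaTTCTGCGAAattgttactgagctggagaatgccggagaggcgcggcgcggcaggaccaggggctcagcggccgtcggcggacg
Klf2: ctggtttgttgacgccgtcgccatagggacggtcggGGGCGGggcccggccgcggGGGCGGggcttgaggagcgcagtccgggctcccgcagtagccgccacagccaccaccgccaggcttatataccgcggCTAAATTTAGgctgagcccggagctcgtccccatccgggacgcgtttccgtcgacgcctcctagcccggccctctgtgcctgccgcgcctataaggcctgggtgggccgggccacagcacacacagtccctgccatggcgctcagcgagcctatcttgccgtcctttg
Klf6: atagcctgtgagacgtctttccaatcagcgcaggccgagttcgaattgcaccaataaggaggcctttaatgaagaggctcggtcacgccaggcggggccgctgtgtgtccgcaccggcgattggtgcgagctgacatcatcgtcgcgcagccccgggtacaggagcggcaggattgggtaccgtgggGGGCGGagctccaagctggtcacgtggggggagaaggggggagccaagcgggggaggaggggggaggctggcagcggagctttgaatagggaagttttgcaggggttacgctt
The Klf9 window is chr19:23140976-23141275 on the plus strand. It was the only member window searched with a match to GTAAACA, which started 100 bases before the gene start, to TGANTCA, 89 bases before, or to TTCNNNGAA, 33 bases before, and it held no GC box. Of 32851 promoter windows of this length 8.30% held TTCNNNGAA, 3.65% GTAAACA and 7.81% TGANTCA. The Klf2 window is chr8:72318812-72319111 on the plus strand and held a match to the MEF2 motif, which is in 3.69% of all windows, 118 bases before the start, along with 2 GC boxes. The Klf6 window is chr13:5861239-5861538 on the plus strand and held 1 GC box. GGGCGG was in 35.7% of all windows and CACCC in 57.5%. A match describes these letters and shows no binding.

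A linear model of log2(signal + 16) was fitted to the 11 arrays, and a gene was called where its brightest probe set had an adjusted p under 0.05 and differed at least 2-fold. Klf2 and Klf4 lay below the brightness filter, so 6 of the 8 members and 21 of their 30 probe sets were tested. The arrays measured bulk RNA, so fewer cells expressing a gene and less RNA per cell cannot be told apart. IL-2 at matched time (IL-2 for 4 h after 30 min of cycloheximide, against 4.5 h of cycloheximide) asked what the cytokine changed. There Klf9 was called higher and no other member was called, with a median log2 difference of 0.21 over the 6 members. Of 12754 genes tested 5.04% were called higher and 5.94% lower, with a median of -0.07. Between 30 min and 4.5 h of cycloheximide Klf10 was called higher and no other member was called, with a median of -0.06. Of all genes 7.22% were called higher and 4.75% lower, with a median of 0.08. With IL-2 against 30 min, where time and cytokine differ together, Klf6 and Klf10 were called higher and Klf13 lower, with a median of 0.48. Of all genes 6.94% were called higher and 4.46% lower, with a median of -0.03. The 3 comparisons share arrays and are not independent.

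These counts depend on the scale. Centring each array on its ribosomal protein genes moved the median of all genes to 0.61 at matched time, -0.23 between 30 min and 4.5 h, and 0.35 with IL-2 against 30 min. The share of called genes that were higher went from 45.9% to 95.1%, from 60.3% to 22.6% and from 60.9% to 89.7%, and with centring on array medians, which moved the last median to 0.10, the last share was 73.3%. Relative to the median of all genes, which no such centring alters, Klf9 stood 1.29 higher with IL-2 at matched time, Klf10 stood 1.20 higher at 4.5 h than at 30 min, and with IL-2 against 30 min Klf6 stood 1.24 higher, Klf10 1.19 higher and Klf13 at -1.18, all on the log2 scale. The members called with ribosomal protein centring were Klf6, Klf7 and Klf9 at matched time, none over time, and Klf6, Klf9 and Klf10 against 30 min, all of them higher.

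**Figure D1:**
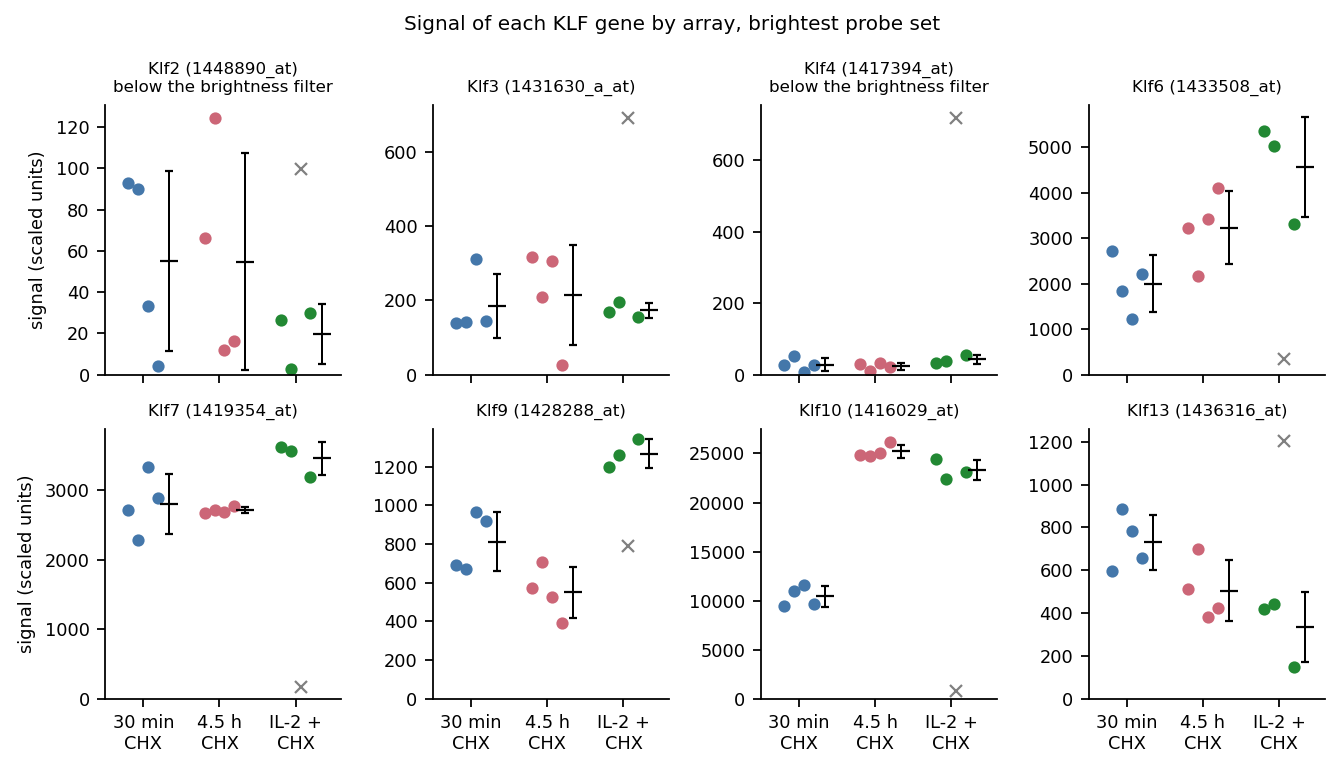
Signal of each member's brightest probe set on each of the 11 arrays (vertical linear axis from 0, scaled signal units) in the 3 groups (horizontal axis), with 1 point per array and a bar at each group's mean ± SD. Crosses mark the left-out array labelled IL-2 replicate 3, which enters no mean. The 30 min points of Klf10 all lie at or below 11578 and the other points at or above 22443, and the 3 IL-2 points of Klf9 lie above all other points, whereas Klf2 and Klf4 scatter at low signal.

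Klf9 read highest with IL-2. Klf9 encodes a Sin3-binding repressor known as a glucocorticoid- and thyroid hormone-induced gene. Its brightest probe set, 1428288_at, read 1199, 1262 and 1345 on the IL-2 arrays, 574, 707, 527 and 390.0 at 4.5 h, and 691, 673, 968 and 918 at 30 min. Each of the 3 IL-2 arrays read higher than any of the other 8. The means were 1269 ± 73.5 (SD, n = 3), 550 ± 131 (SD, n = 4) and 812 ± 152 (SD, n = 4). Klf9 rose with IL-2 at matched time by 1.21 ± 0.21 on the log2 scale (SE, adjusted p = 0.00211), or 2.32-fold. Against 30 min the log2 difference was 0.65 ± 0.21 (SE, adjusted p = 0.0465), and 4.5 h against 30 min gave -0.56 ± 0.19 (SE, adjusted p = 0.0483). Neither of these reached 2-fold. The other 5 tested probe sets of Klf9 were not called in any comparison, and at matched time their log2 differences ran from -0.09 to 0.68 (adjusted p of 0.4 to 0.934). The next brightest, 1456341_a_at, read 484, 573 and 1736 on the IL-2 arrays and 318, 297, 909 and 1280 at 30 min, where IL-2 replicate 4 and 30 min replicates 3 and 4 were high, and 668, 911, 608 and 713 at 4.5 h. With the mean over all tested probe sets in place of the brightest, the difference at matched time was 0.46 (adjusted p = 0.443).

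Klf10 was high at 4.5 h with or without IL-2. Klf10, also known as TGF-beta-inducible early gene, encodes a Sin3-binding repressor that restrains proliferation and lies on mouse chr15:38291464-38300711 (GRCm38.p6). Its single probe set, 1416029_at, read 9430, 10979, 11578 and 9689 at 30 min, 24892, 24771, 25082 and 26175 at 4.5 h, and 24447, 22443 and 23077 with IL-2. All 7 late arrays lay above all 4 early arrays. Klf10 rose between 30 min and 4.5 h by 1.28 ± 0.12 on the log2 scale (SE, adjusted p = 6.3e-05), or 2.43-fold, and stood higher with IL-2 than at 30 min by 1.17 ± 0.13 (SE, adjusted p = 0.000152), or 2.24-fold. With ribosomal protein centring the difference over time was 0.97 (adjusted p = 0.0021), short of 2-fold. At the same time point the IL-2 arrays averaged 23322 ± 1024 (SD, n = 3), and those that lacked the cytokine averaged 25230 ± 643 (SD, n = 4). Their log2 difference of -0.11 ± 0.13 (SE, adjusted p = 0.548) had a 95% interval from -0.39 to 0.165 and turned positive with quantile normalization, at 0.49 (adjusted p = 0.0174), and with ribosomal protein centring, at 0.57 (adjusted p = 0.0304).

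Klf13 was lowest with IL-2. Klf13, known in human T cells as the RANTES factor RFLAT-1, activates the chemokine gene Ccl5 late after T cell activation. Its brightest probe set, 1436316_at, read 597, 886, 782 and 655 at 30 min, 512, 701, 383 and 423 at 4.5 h, and 417, 444 and 147 with IL-2. The IL-2 arrays lay below all the 30 min arrays and overlapped those at 4.5 h, and the array of IL-2 replicate 4 was the lowest of all. Klf13 fell by 1.21 ± 0.35 on the log2 scale with IL-2 against 30 min (SE, adjusted p = 0.0293), or 2.31-fold. Without IL-2 replicate 4 the difference was -0.73 (adjusted p = 0.0788), without 30 min replicate 2 it was -1.11 (adjusted p = 0.0674) and without 30 min replicate 3 it was -1.17 (adjusted p = 0.0601), and the call was lost each time. At matched time the difference was -0.67 ± 0.35 (SE, adjusted p = 0.184), -0.19 without IL-2 replicate 4 (adjusted p = 0.648), and 0.01 with ribosomal protein centring. A second probe set, 1432543_a_at, read 191, 226 and 182 with IL-2 and 354, 386, 328 and 319 at 4.5 h, a log2 difference of -0.75 ± 0.26 (SE, adjusted p = 0.0514) without overlap between the groups. The third, 1456030_at, was not tested.

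Klf6 was highest with IL-2. Klf6 encodes a widely expressed activator and early-response factor that can induce the cell cycle inhibitor Cdkn1a. Its brightest probe set, 1433508_at, read 2712, 1841, 1222 and 2212 at 30 min, 3237, 2160 (replicate 2), 3421 and 4106 at 4.5 h, and 5355, 5032 and 3323 with IL-2. The IL-2 arrays lay above all the 30 min arrays, while the lowest of them lay within the 4.5 h range. Klf6 rose with IL-2 against 30 min by 1.22 ± 0.30 on the log2 scale (SE, adjusted p = 0.0144), or 2.32-fold, and the call was lost without IL-2 replicate 1, at 1.09 (adjusted p = 0.0595), or without IL-2 replicate 2, at 1.13 (adjusted p = 0.0551). The difference was 0.51 ± 0.30 (SE, adjusted p = 0.245) at matched time and 0.71 ± 0.28 (SE, adjusted p = 0.0772) between 30 min and 4.5 h.

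The probe sets of Klf6 gave different sizes for the IL-2 difference at matched time. All 5 estimates were above 0, from 0.15 to 1.73, and 1 of them was called. This was 1418280_at, which read 2450.0, 2128 and 2058 with IL-2 and 770.1, 389, 777 and 786 at 4.5 h without overlap, a log2 difference of 1.73 ± 0.31 (SE, adjusted p = 0.00269), or 3.31-fold. For 1447448_s_at the difference was 0.85 ± 0.24 (SE, adjusted p = 0.025) and for 1427742_a_at it was 0.83 ± 0.24 (SE, adjusted p = 0.0266), both short of 2-fold. Against 30 min 3 of the 5 probe sets were called higher. Of all probe sets tested 6.63% were called higher and 5.51% lower at matched time, and 6.32% and 4.26% against 30 min. The 5 probe sets measure 1 gene on the same arrays and are not independent.

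Klf7 was not called by its brightest probe set. Klf7 encodes an activator closely related to Klf6 and is best known from developing neurons. Probe set 1419354_at read 3618, 3564 and 3180 with IL-2, 2665, 2708, 2685 and 2765 at 4.5 h, and 2711, 2287, 3325 and 2881 at 30 min. The IL-2 arrays lay above all the 4.5 h arrays, by 0.35 ± 0.15 on the log2 scale (SE, adjusted p = 0.102), with a 95% interval from 0.03 to 0.67. Of its other 3 probe sets 1419356_at was called higher with IL-2 at matched time, with 4040, 3339 and 1876 against 1336, 1142, 1058 and 1023, a log2 difference of 1.36 ± 0.27 (SE, adjusted p = 0.00446). For 1449439_at the difference was 0.67 ± 0.22 (SE, adjusted p = 0.043), short of 2-fold. In all 4 probe sets of Klf7 the IL-2 arrays lay above the 4.5 h arrays without overlap, as they did in 20.7% of all probe sets tested, while in 21% they lay below without overlap. Neither of the comparisons with 30 min gave a call in any of the 4.

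Klf2 and Klf4, the activators tied to T cell quiescence, were near the detection floor. The single Klf2 probe set, 1448890_at, read 93.1, 89.9, 33.3 and 4.3 at 30 min, 66.2, 124, 11.7 and 16.3 at 4.5 h, and 26.3, 2.8 and 29.6 with IL-2. The groups overlapped, and the spread within each group without IL-2 was about as large as its mean, 55.2 ± 43.6 (SD, n = 4) and 54.7 ± 52.6 (SD, n = 4), against 19.6 ± 14.6 (SD, n = 3) with IL-2. Klf4, an activator and pluripotency factor that slows division of cytotoxic T cells, read 27.2 ± 18.2 (SD, n = 4) at 30 min, 23.1 ± 9.31 (SD, n = 4) at 4.5 h and 42.6 ± 11.9 (SD, n = 3) with IL-2 on 1417394_at. Its second probe set, 1417395_at, gave group means of 12.1, 26.5 and 29.6 in the same order. The IL-2 arrays of Klf4 lay above the 4.5 h arrays without overlap on 1417394_at (33.5, 38.2 and 56.1 against 28.9, 10.5, 31.2 and 21.6) but overlapped those at 30 min, and on 1417395_at they lay above the 30 min arrays (25.3, 41.9 and 21.7 against 12.1, 19.1, 6.6 and 10.5) but overlapped those at 4.5 h. No difference of Klf2 or Klf4 was tested.

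Klf3, the member that recruits C-terminal binding proteins, was dim and not called. Its brightest probe set, 1431630_a_at, read 139, 143, 313 and 146 at 30 min, 318, 208, 308 and 27 at 4.5 h, and 170.0, 195 and 154 with IL-2. The groups overlapped, and single arrays in each group without IL-2 stood far from the others. The log2 differences of Klf3 were 0.07 ± 0.62 (SE, adjusted p = 0.95) at matched time, with a 95% interval from -1.30 to 1.44, and -0.08 ± 0.57 (SE, adjusted p = 0.93) over time, so differences of 2-fold either way lay within the error. Of its 7 probe sets 3 were tested and limma called 0 in any comparison, with 0 at an unadjusted p under 0.05.

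**Figure D2:**
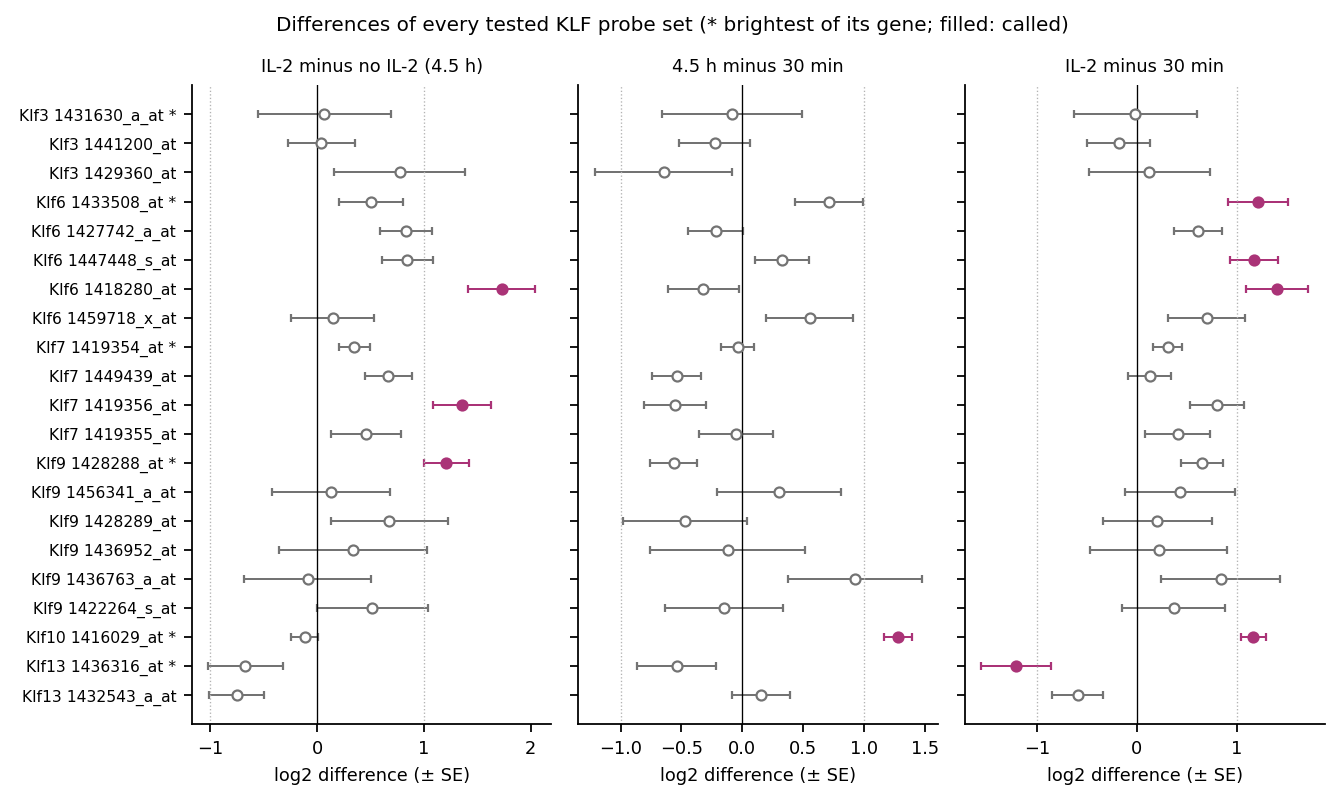
Log2 difference and its standard error for each of the 21 tested probe sets of the members (horizontal axis, log2 scale) in the 3 comparisons, with filled points for those called at an adjusted p under 0.05 and at least 2-fold, a star at the brightest probe set of each gene and dotted lines at a 2-fold difference. At matched time 3 probe sets are called, 1 each of Klf6, Klf7 and Klf9, and over time 1 is called, that of Klf10.

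Counted over all 21 probe sets, IL-2 at matched time gave 3 calls upward and 0 downward, the step from 30 min to 4.5 h gave 1 and 0, and IL-2 against 30 min gave 4 and 1. Of all 27022 probe sets tested 6.63% were called higher and 5.51% lower in the first comparison, 6.48% and 6.76% in the second, and 6.32% and 4.26% in the third. The order of group means was not shared by the family. For Klf9 it ran from 4.5 h through 30 min to IL-2, and of its steps that from 4.5 h to IL-2 was called and those to and from 30 min were short of 2-fold. For Klf10 it ran from 30 min to IL-2 and 4.5 h, and the later pair did not differ beyond the test. For Klf6 it ran from 30 min through 4.5 h to IL-2, with neither neighbouring step called, and for Klf13 it ran the opposite way, again with neither step called.

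Arrays within a group also differed by hybridisation session. The scanner files record a date and time of hybridisation but name no session. Stamps of the same day on the same side of noon were taken here as 1 session, and all 4.5 h arrays were set as 1 session. The IL-2 and 30 min groups shared 2 sessions on the first scan day, a midday one with replicates 1 and 2 of each group and a morning one with replicate 4 of each. The array of 30 min replicate 3 was scanned on another day and shared its session only with the left-out IL-2 replicate 3. In the comparison over all arrays it thus had no IL-2 array of its own day beside it. Within both sessions Klf10 was higher with IL-2 than at 30 min, by 1.20 at midday (2 against 2 arrays) and 1.25 in the morning (1 against 1), and with the session as a block by 1.22 ± 0.11 on the log2 scale (SE, adjusted p = 0.000268). Klf9 differed by 0.84 and 0.54, and by 0.74 ± 0.20 with the block (SE, adjusted p = 0.0291). The brightest Klf6 probe set differed by 1.21 and 0.58, and by 1.00 ± 0.27 with the block (SE, adjusted p = 0.0251). For Klf13 the values were -0.74 and -2.04, and -1.17 ± 0.32 with the block, with an adjusted p of 0.0287 with the 4.5 h arrays in the fit and 0.0653 without them. The 4 Klf7 probe sets were above 0 in both sessions, by 0.33 to 0.90 at midday and 0.09 to 0.21 in the morning. With the midday arrays alone, 2 against 2, limma called 0 of the 6 members, with 6 at an unadjusted p under 0.05, and Klf10 had an adjusted p of 0.0504 there. The share of all genes at that unadjusted p was not computed, so the count of 6 is not read as a result about the family.

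**Figure D3:**
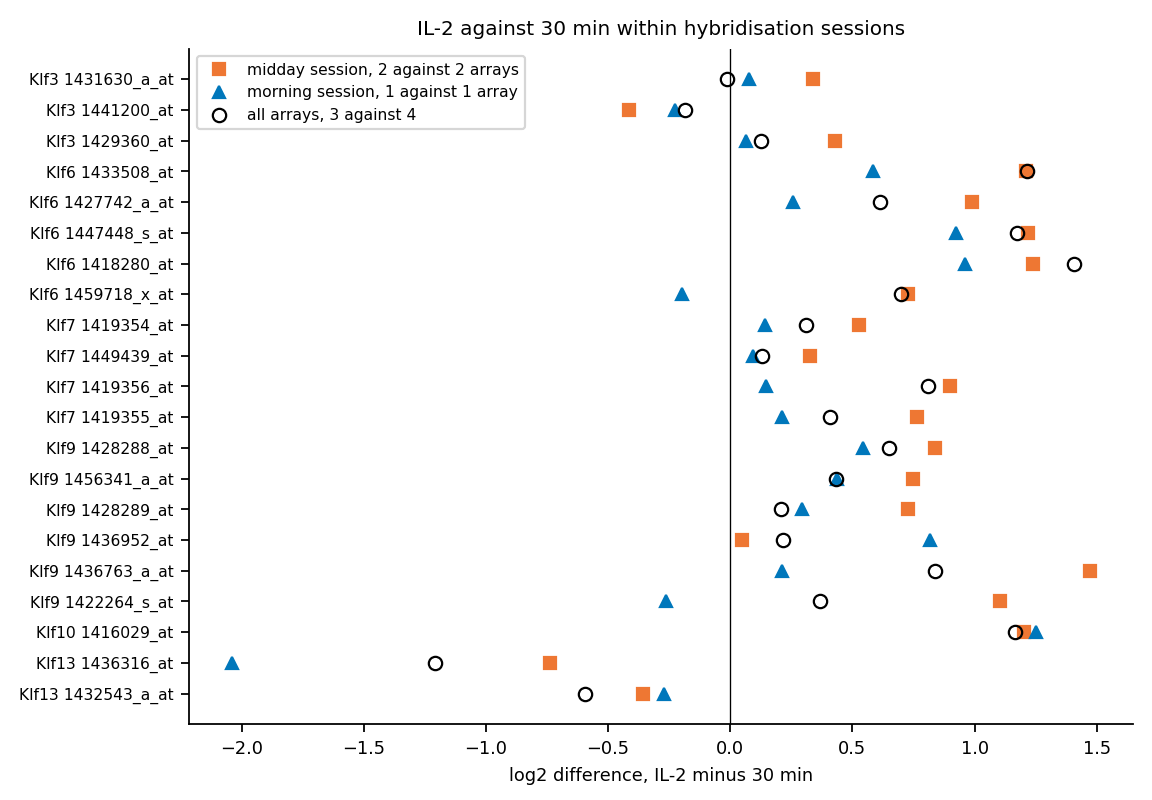
Log2 difference between IL-2 and 30 min for each tested probe set of the members (horizontal axis, log2 scale) within the midday session (squares), within the morning session (triangles) and over all arrays (open circles). The 3 values for Klf10 lie together near 1.2, while those for Klf13 1436316_at run from -2.04 to -0.74.

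Among the other KLF genes and the related SP genes, 15 of 18 were on the array and 11 were tested, with medians of 0.01, 0.16 and 0.15 in the 3 comparisons. Klf11, a TGF-beta-inducible Sin3-binding relative of Klf10, was called in both comparisons with 30 min. It read 876, 1010.4, 549 and 1120 at 30 min, 2814, 2355, 2752 and 2552 at 4.5 h, and 1722, 1863 and 1723 with IL-2. The 3 groups did not overlap. Klf11 rose between 30 min and 4.5 h by 1.59 ± 0.20 on the log2 scale (SE, adjusted p = 0.000313) and stood 1.03 ± 0.22 higher with IL-2 than at 30 min (SE, adjusted p = 0.00642), a call that ended without 30 min replicate 3, at 0.82, without IL-2 replicate 2, at 0.99, and with the session as a block, at 0.82. That call also ended with quantile normalization, at 0.92, and with the replicate number as a block, at 0.93. Sp4 rose with IL-2 against 30 min by 1.16 ± 0.26 (SE, adjusted p = 0.00814). Klf1, the erythroid KLF, was called higher with IL-2 at matched time by 1.29 ± 0.40 (SE, adjusted p = 0.0341) and lower at 4.5 h than at 30 min by 1.13 ± 0.37 (SE, adjusted p = 0.0375), but its group means were 17.3 to 65.7 signal units, near the floor, and both calls were lost with no filter on dim probe sets (adjusted p = 0.064 and 0.0668) and when single arrays were left out. With IL-2 against 30 min Klf1 was not called, at 0.15 ± 0.40 (SE, adjusted p = 0.824). The erythroid factor Gata1 was called higher with IL-2 at matched time, from 480 ± 88.5 (SD, n = 4) at 4.5 h to 1431 ± 80.7 (SD, n = 3). Hba-a1 and Epor, the other erythroid markers on the array, were not called.

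Of 14 KLF cofactors and turnover factors 13 were tested, and at matched time 2 rose and 0 fell, with a median of -0.29 against -0.07 for all genes. Of all genes tested 5.04% were called higher and 5.94% lower at matched time. The 2 that rose, Smurf1 and Wwp1, encode ubiquitin ligases known to target KLF proteins. Smurf1 read 1836, 1684 and 1692 with IL-2 and 277, 390.1, 299 and 318 at 4.5 h, and rose by 2.39 ± 0.19 on the log2 scale (SE, adjusted p = 4.3e-05). Wwp1 rose by 1.45 ± 0.23 (SE, adjusted p = 0.00133), from 716 ± 78.4 (SD, n = 4) to 2032 ± 567 (SD, n = 3), and by 0.99 over the mean of its probe sets, just short of 2-fold. For both genes the IL-2 arrays lay above all the 4.5 h arrays, as they did in 20.7% of all probe sets tested. Between 30 min and 4.5 h limma called 0 of the 13, with 9 at an unadjusted p under 0.05 and a median of -0.13. Of all genes 7.22% were called higher and 4.75% lower over that time, with a median of 0.08. With IL-2 against 30 min Smurf1 rose by 1.64 ± 0.19 (SE, adjusted p = 0.000219). In that comparison Ctbp1, the corepressor bound by Klf3, fell by 1.01 ± 0.13 (SE, adjusted p = 0.000428). Sin3a, the corepressor bound by Klf9, Klf10 and Klf13, fell by 1.12 ± 0.23 there (SE, adjusted p = 0.0057). Of all genes 6.94% were called higher and 4.46% lower in that comparison. Without 30 min replicate 2 the differences of Ctbp1 and Sin3a were -0.95 and -0.98, and without IL-2 replicate 4 that of Ctbp1 was -0.98, each just short of 2-fold. Both calls were also lost with centring on array medians, at -0.89 and -0.99. With ribosomal protein centring the differences of Ctbp1 and Sin3a were -0.64 and -0.74, further below 2-fold. On the deposited scale Sin3a stood at -0.72 ± 0.21 at 4.5 h against 30 min (SE, adjusted p = 0.0263), without IL-2. At matched time it stood at -0.40 ± 0.23 (SE, adjusted p = 0.232). Ctbp1 stood at -0.38 ± 0.12 (SE, adjusted p = 0.0354) and -0.63 ± 0.13 (SE, adjusted p = 0.00566) in the same order.

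All calls among the genes upstream of Klf2 with IL-2 were downward. Map3k3, Map2k5 and Mapk7 form a kinase cascade that activates MEF2 proteins and through them Klf2, and FOXO factors drive Klf2 in T cells. Of 9 such genes 8 were tested, and at matched time 0 rose and 3 fell, with a median of -0.41 against -0.07 for all genes. Of all genes tested 5.04% were called higher and 5.94% lower at matched time. Map3k3 read 214, 110.3 and 157 with IL-2 and 666, 678, 598 and 745 at 4.5 h, and fell by 2.00 ± 0.20 on the log2 scale (SE, adjusted p = 0.000104). Mef2d fell by 1.39 ± 0.14 (SE, adjusted p = 0.000104), from 1659 ± 146 (SD, n = 4) to 622 ± 28.7 (SD, n = 3), and Foxo4 by 1.54 ± 0.22 (SE, adjusted p = 0.00078), from 211 ± 24.3 (SD, n = 4) to 61.9 ± 8.33 (SD, n = 3). Foxo1, named here after its value was seen because it is the FOXO factor best known for driving Klf2 in T cells, had a difference in the other direction, 0.64 ± 0.19 (SE, adjusted p = 0.0278), short of 2-fold. The rest of the tested genes were not called either. Mapk7 stood at -0.09 ± 0.28 (SE, adjusted p = 0.848) and Mef2a at -0.08 ± 0.13 (SE, adjusted p = 0.691). Foxo3 stood at 0.37 ± 0.29 (SE, adjusted p = 0.372) and Map2k5 at -0.73 ± 0.16 (SE, adjusted p = 0.00682). For the 3 called genes the IL-2 arrays lay below all the 4.5 h arrays, as they did in 21% of all probe sets tested. With ribosomal protein centring Mef2d and Foxo4 stood at -0.71 and -0.86, short of 2-fold, and with the mean over probe sets Mef2d stood at -0.80. Against 30 min 0 rose and 4 fell, with Map2k5 as the fourth at -1.0 ± 0.16 (SE, adjusted p = 0.00132). Of all genes 6.94% were called higher and 4.46% lower in that comparison. Mef2d, at -1.01 ± 0.14 there (SE, adjusted p = 0.000516), and Map2k5 lay at the 2-fold threshold, and both calls ended with centring on array medians, at -0.88 each, with ribosomal protein centring, at -0.64 and -0.63, and with the mean over probe sets, at -0.78 and -0.86. The Mef2d call also ended without IL-2 replicate 4 or 30 min replicate 1 or 4 (-0.97 to -0.98), and the Map2k5 call without IL-2 replicate 2 or 30 min replicate 1 or 2 (-0.93 to -0.98). Between 30 min and 4.5 h limma called 0 in either direction, with 2 at an unadjusted p under 0.05. The Klf2 signal itself was too low to test, as given above.

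Genes reported in the literature as KLF targets showed no common direction. Of 16 such genes 13 were tested, with 1 higher and 2 lower at matched time, 2 higher and 2 lower between 30 min and 4.5 h, and 1 higher and 1 lower with IL-2 against 30 min, and medians of -0.32, 0.24 and -0.31. In the same order the medians of all genes were -0.07, 0.08 and -0.03. The shares of all genes called higher and lower were 5.04% and 5.94%, 7.22% and 4.75%, and 6.94% and 4.46%. Itgb7, which encodes an integrin chain that guides T cells to the gut, read 575, 502 and 239 with IL-2, 1743, 1241, 1751 and 1839 at 4.5 h, and 549.8, 679.8, 423 and 256 at 30 min. The 4.5 h arrays lay above all others. Itgb7 fell by 1.94 ± 0.36 on the log2 scale with IL-2 at matched time (SE, adjusted p = 0.00282) and rose from 30 min to 4.5 h by 1.82 ± 0.33 (SE, adjusted p = 0.00216). Bcl2l1, which encodes the survival protein Bcl-xL, rose with IL-2 by 1.31 ± 0.23 at matched time (SE, adjusted p = 0.00215) and by 1.80 ± 0.23 against 30 min (SE, adjusted p = 0.00035). Cdkn1a, a cell cycle inhibitor and a target of Klf4 and Klf6, fell between 30 min and 4.5 h by 1.36 ± 0.21 (SE, adjusted p = 0.000864), from 9949 ± 1971 (SD, n = 4) to 3906 ± 1099 (SD, n = 4), and over the mean of its probe sets the difference was -0.51 (adjusted p = 0.061). Tgfb1 fell by 1.08 ± 0.20 over the same interval (SE, adjusted p = 0.00243), and by less than 2-fold, 0.89, without 30 min replicate 2. Over the mean of its probe sets the Tgfb1 difference was -0.77 (adjusted p = 0.0348), and with centring on array medians it was -0.997, both short of 2-fold. Ccl5, the Klf13 target, stood at 90.9 ± 8.99 (SD, n = 4) at 4.5 h, 26.1 ± 18.3 (SD, n = 4) at 30 min and 17.2 ± 18.6 (SD, n = 3) with IL-2, all dim. It passed the brightness filter only through the 4.5 h group, where it is high, so its 2 calls, lower with IL-2 at matched time and higher over time, are not read as results, and without it the counts above are 1 higher and 1 lower, and 1 higher and 2 lower. Cdkn1b was called lower against 30 min at an adjusted p of 0.0493, with -1.16 ± 0.38 (SE), and without IL-2 replicate 4 it stood at -0.76 (adjusted p = 0.19).

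**Figure D4:**
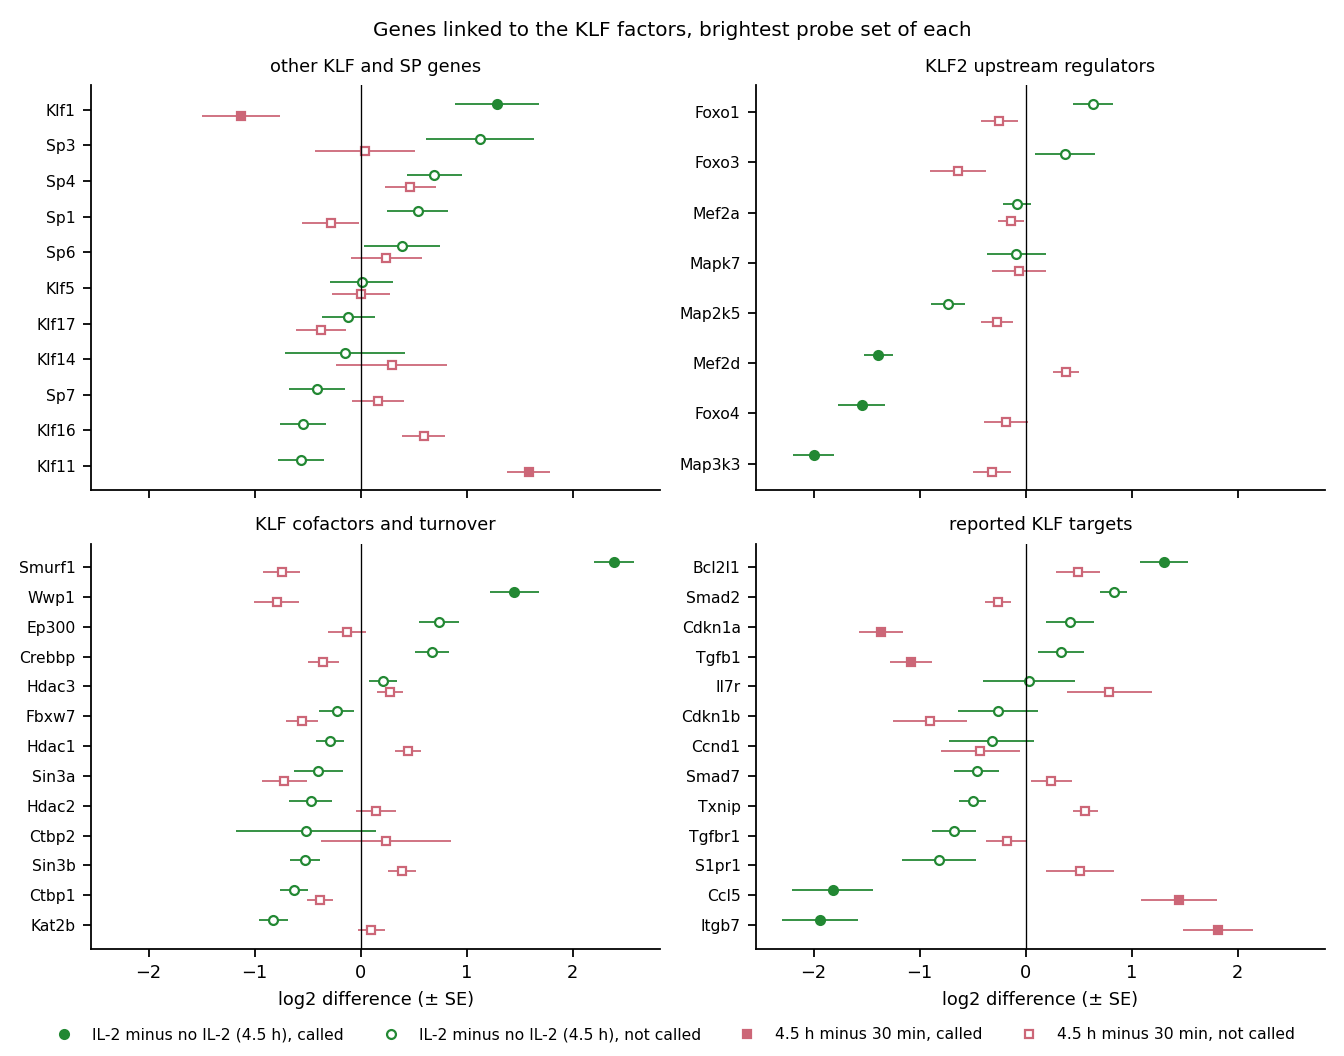
Log2 difference and its standard error (horizontal axis, log2 scale) for every tested gene of the lists of other KLF and SP genes, cofactors and turnover factors, regulators upstream of Klf2 and reported targets, with circles for IL-2 at matched time, squares for 4.5 h against 30 min and filled symbols for calls. At matched time Smurf1 stands at 2.39 and Map3k3 at -2.0.

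The genes whose log2 values followed each member most closely over the 11 arrays are given as a description, since the arrays of a group share their treatment. For Klf9 they were Qprt, Dnajc30 and Fgl2 (Pearson r of 0.962, 0.953 and 0.950), and for Klf10 they were Zbtb2, Utp25 and Selenoo (0.994, 0.990 and 0.990). For Klf6 they were Cobll1, Msl2 and Cdc27 (0.959, 0.948 and 0.947), for Klf7 Crem, Rabif and Nudt16 (0.941, 0.940 and 0.936), and for Klf13 Ubxn1, Clic4 and Atp5c1 (0.946, 0.941 and 0.939). Klf3 had the weakest partners, Krt8, A1cf and Cyp2c68 (0.866, 0.821 and 0.816).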

How the data were processed

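CTLL-2 total RNA had been hybridised to 12 arrays, 4 for each of 3 groups. The intensity values that the authors deposited, 1 for each probe set on each array, are linear. The submitters' processing notes name GCOS 1.3. The deposited arrays shared a trimmed mean of 500 after leaving out 2% at each end, so they were scaled before deposit. How probes were summarised is not given in the sources used here. Deposited scanner information was used for scan day and hybridisation session only. Of 45101 probe sets 64 were controls; of the rest 34945 had 1 symbol in the platform table, 932 several and 9160 none.

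Signals were kept on the deposited scale and analysed as log2(signal + 16), which understates differences of dim probe sets. The 27022 probe sets with a mean at or above the 40th percentile (signal 33.6) over the 11 arrays were tested in 1 model of 3 groups by the lmFit and eBayes functions of limma 3.58.1, under R 4.3.3, with Benjamini-Hochberg adjustment over all of them. A call needed an adjusted p under 0.05 and at least a 2-fold difference, and the brightest probe set stood for a gene. Counts at an unadjusted p under 0.05 are given without the share of all genes, so they are not read as results. The fit was tested on simulated data. Since separate cultures are not stated for the replicates, the p-values reflect only how far these arrays vary, which may be technical, and the number of arrays limits the precision.

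All members and probe sets were named, along with up to 4 called genes of each other list per comparison by p-value, and the 3 genes most correlated with each tested member. The members, lists, tests and alternatives were chosen with earlier results of these data known. Alternatives covered normalization, pseudocount, filter, model settings, blocks, probe sets, thresholds and leaving out each array. The hybridisation session alternatives were added after seeing the data. Figures were drawn with matplotlib 3.10.9 in python 3.11.15.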

Additional observations from a re-analysis of the deposited data

Results flagged for a closer look

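Single arrays stood apart from the other 3 of their group in 4 of 42 groups of 4 arrays examined over the tested member probe sets, where chance gives about 1 in 20. For Klf3 1431630_a_at the 30 min replicate 3 array read 313.2, above the other three. For Klf6 the 4.5 h replicate 2 array was low on both 1427742_a_at, at 1436.4, and 1418280_at, at 388.7. For Klf9 1436952_at the 30 min replicate 1 array was low at 33.4.

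The array labelled IL-2 replicate 3, which was left out above, gave 8 member probe sets above all 11 other arrays, 11 below all and 11 within their range. Klf4 read 718.0 on 1417394_at, where the others reached 56.1 at most, and 285.8 on 1417395_at. Klf3 read 693.3 on 1431630_a_at, 352.1 on 1429360_at, 1125.2 on 1454666_at and 560.7 on 1421604_a_at. Klf13 read 1204.6 on 1436316_at, where the others reached 886.1, and 719.2 on 1432543_a_at. Klf10 read 762.4, below all the others.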

How the results depend on the processing

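Of the members' 462 recomputed differences 414 kept their direction and side of the threshold, 19 lost a call, 3 gained one and 26 changed sign; of 710 for the other named genes 605 kept and 105 lost the call. With IL-2 replicate 3 included, 0 members were called over time and 0 with IL-2 against 30 min (1 and 0 at an unadjusted p under 0.05), and the genes called went from 1401, 1527 and 1454 to 565, 780 and 493; Klf6 and Klf7 stood at -0.41 and -0.70 at matched time, and Klf3, Klf7 and Klf10 at 0.46, -0.74 and -0.0607 against 30 min. With ribosomal protein centring 3 members were called at matched time (Klf6, Klf7 and Klf9; 3323 genes) and 0 over time (3 at an unadjusted p under 0.05), with Klf10 at 0.57 and Klf13 at 0.012 at matched time and Klf3 at 0.36 against 30 min. Quantile normalization gave Klf10 0.49 at matched time, and median centring gave Klf7 0.0462 over time and Klf3 0.111 against 30 min. With the mean over probe sets 0 members were called at matched time (3 at an unadjusted p under 0.05). With no fold threshold 2 members were called over time and genes called were 3738, 4293 and 3452. At an adjusted p under 0.01, 1 member was called against 30 min. With a pseudocount of 64 Klf3 stood at -0.0413 at matched time and 0.0201 over time. The midday arrays alone gave 0 members and 727 genes against 30 min and Klf3 at 0.34, and with all 4.5 h arrays Klf3 at 0.19 and Klf7 at 0.12 over time. Blocks for scan day and session gave Klf3 0.25 and 0.25 against 30 min. Leaving out each array in turn gave 1 to 1, 1 to 1 and 2 to 3 members called; Klf3 ran from -0.62 to 0.37 at matched time, -0.38 to 0.60 over time and -0.11 to 0.25 against 30 min, and Klf7 from -0.13 to 0.0493 over time. With the replicate number as a block, member counts stayed at 1, 1 and 3 and Klf3 stood at 0.26 against 30 min; deviations of same-numbered IL-2 and 30 min arrays correlated at 0.126, 0.091 and 0.216, but 30 min replicate 2 correlated more with IL-2 replicate 1 (0.124) and no pair with 4.5 h exceeded 0.059, so pairing by number was not settled and the block was kept as an alternative. The Klf13 call was also lost with no filter and with only the 2 groups compared. The cause of these changes was not tested. Signals near the floor limit Klf2, Klf3 and Klf4.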
